A study of Homo sapiens with 9 samples.

Results

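The genes described here are 10 genes of the NRF2 antioxidant response and the thioredoxin system: NQO1, GCLC, GCLM, TXNRD1, TXN, TXNIP, AKR1B10, HMOX1, NFE2L2 and KEAP1. A probe set, the array's group of short probes read as 1 value, was taken when its annotation named exactly 1 gene and that gene was on this list. The rule found 16 probe sets for all 10 genes, out of 22215 probe sets that were not array controls and 11963 named genes. NQO1 and TXNIP had 3 probe sets each, GCLC and TXN had 2 each, and the other 6 genes had 1. The cells were HepG2, a long-established human liver tumour line, 1 line and not normal liver, kept in medium whose serum had been depleted of thyroid hormone. They received 10 nM T3 (3 arrays), 10 nM GC-1 (3 arrays) or vehicle (3 arrays), and messenger RNA was measured after 24 h. T3, triiodothyronine, is the active thyroid hormone. GC-1 is a synthetic agonist of its receptors with a preference for the beta form. It carries alkyl groups at the ring positions where T3 has iodine, a methylene link in place of the ether oxygen, and an oxyacetic acid in place of the amino acid tail. Values are log2 signals, on which a difference of 1 is a doubling. The study asks how closely gene regulation by the synthetic ligand follows that by the hormone.

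NRF2, encoded by NFE2L2, is a transcription factor that binds antioxidant response elements together with small MAF proteins. KEAP1 holds NRF2 for destruction through a CUL3 ubiquitin ligase until electrophiles or oxidants modify KEAP1, so NRF2 activity is set largely at the protein level. Its target genes make glutathione, reduce quinones and aldehydes, break down heme and keep thioredoxin reduced. Thioredoxin passes electrons from NADPH, by way of thioredoxin reductase, to oxidised proteins. TXNIP binds thioredoxin and limits glucose uptake, and in liver cells its gene is known to be switched on by glucose through the carbohydrate response factors ChREBP (MLXIPL) and MondoA (MLXIP).

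The promoter stretches below hold letters that match the core sequences of response elements for these pathways. They were taken from RefSeq windows of 250 bases before to 50 after a gene start (build GRCh38.p14). There were 12 windows for 8 of the 10 genes, with none for HMOX1 and AKR1B10. Not every match is printed, and those of KEAP1 are left out. The core TGACNNNGC of the antioxidant response element was searched on both strands, as was a pair of CACGNG hexamers 5 bases apart, a form of the carbohydrate response element. Capitals mark the match, and each stretch is written along the gene's own strand, so a core on the other strand appears as its reverse complement. The GCLM stretch lies at chr1:93909436-93909484 (minus strand), the TXNRD1 stretches at chr12:104215660-104215708 and chr12:104286910-104286958 (plus strand, before separate starts), and the TXNIP stretch at chr1:145996631-145996687 (minus strand).
GCLM, antioxidant core: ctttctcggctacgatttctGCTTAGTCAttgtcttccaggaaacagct
TXNRD1, antioxidant core, first start: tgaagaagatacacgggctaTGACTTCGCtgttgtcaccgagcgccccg
TXNRD1, antioxidant core, later start: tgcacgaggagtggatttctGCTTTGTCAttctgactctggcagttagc
TXNIP, carbohydrate element: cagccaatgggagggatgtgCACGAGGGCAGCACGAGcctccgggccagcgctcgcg

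The antioxidant core was found in 4 of the 12 windows, and in 13.3% of all 35116 promoter windows. Those 4 belong to 3 of the 8 genes, GCLM, TXNRD1 and KEAP1. The paired carbohydrate element was found in 1 of the 12 windows and in 0.057% of all windows. That window was of TXNIP, already known to respond to the carbohydrate response factors, so the match is no independent find. AGGTCA, the hexamer that thyroid hormone receptors bind, was found once, in KEAP1 (13.8% of all windows), and 2 direct copies of it 4 bases apart in 0 of the 8 genes (0.0199% of all windows). Such matches describe letters in a short window and say nothing of binding. An element outside the window would be missed, so a gene without a match may still have one.

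All 16 probe sets read above the array medians, with signals from 8.43 to 12.67 against medians of 7.02 to 7.06. The label of the cells fitted their markers: 8 measured hepatocyte genes, among them ALB and TTR, and the fetal liver genes AFP and GPC3 had group means between 11.6 and 14.5. Of these, FGB rose with both ligands and APOB with T3. Of 10 measured markers of leukocytes, endothelium and stroma, with group means from 4.83 to 12.5, none changed under either ligand. They were not uniformly dim: PTPRC stood at 4.89, 5.04 and 4.88 and CDH5 at 5.05, 5.00 and 4.83 in T3, GC-1 and vehicle cells, but the stromal genes ACTA2 and COL1A1 stood at 10.2, 10.2 and 10.2 and at 9.09, 9.17 and 9.19. LYZ, read by a probe set that can bind several transcripts, stood at 12.5 in all of them. T3 replicates 1 and 2 had interquartile ranges of 2.99 and 2.97 log2 units, against 2.83 to 2.88 on the other 7 arrays, and T3 replicate 3 read apart from them in several genes. Among the 16 T3 differences from vehicle, 1 changed sign when this array was left out and 2 when it was the lone T3 array. Values are given both ways for GCLC, GCLM, TXN, TXNRD1, TXNIP and AKR1B10. A fit with 1 T3 array holds no spread among T3 arrays, so its T3 differences are given without a p-value. The labels do not say that replicates were separate cultures, so the p-values reflect array-to-array spread that may be only technical.

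None of the 16 probe sets passed the test for a change under T3 or under GC-1 (limma, Benjamini-Hochberg adjusted p under 0.05 over all probe sets). In the whole table T3 changed 5.50% of probe sets and GC-1 2.80%. Without adjustment, 1 of the 16 had a p under 0.05 with T3, where 21.1% of all probe sets did, and 4 with GC-1, where 15.9% did. With the trend and robust options of limma, 1 passed with T3, against 8.81% of all probe sets, and 4 with GC-1, against 6.06%. The sizes were small: the 16 differences from vehicle ran from -0.21 to 0.10 on the log2 scale with T3, and from -0.36 to 0.03 with GC-1. Their medians were -0.04 and -0.07, beside -0.02 and 0.00 over all probe sets, and 12 of 16 were negative with each ligand, where 55.5% and 52.0% of all probe sets were. Several of the 16 are repeat probe sets of 1 gene, and both comparisons share the vehicle arrays. The 95% interval lay within 1.5-fold in both directions for all 16 with T3 and for 15 with GC-1, which holds also for 98.6% and 98.9% of all probe sets.

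**Figure D1:**
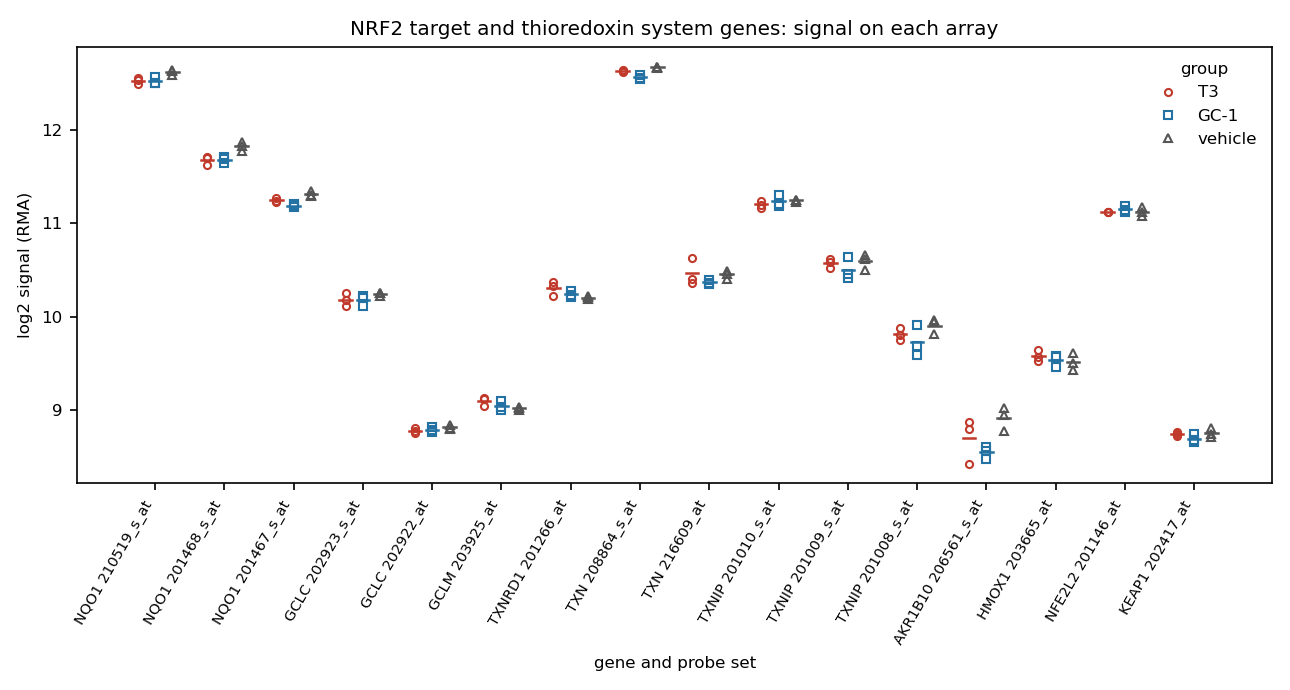
Log2 signal (vertical axis) of each probe set (horizontal axis) on the T3 (circles), GC-1 (squares) and vehicle (triangles) arrays, 3 each, with the group mean as a bar. Groups differ by little within a probe set; AKR1B10 has the widest spread, from 8.43 to 9.02.

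**Figure D2:**
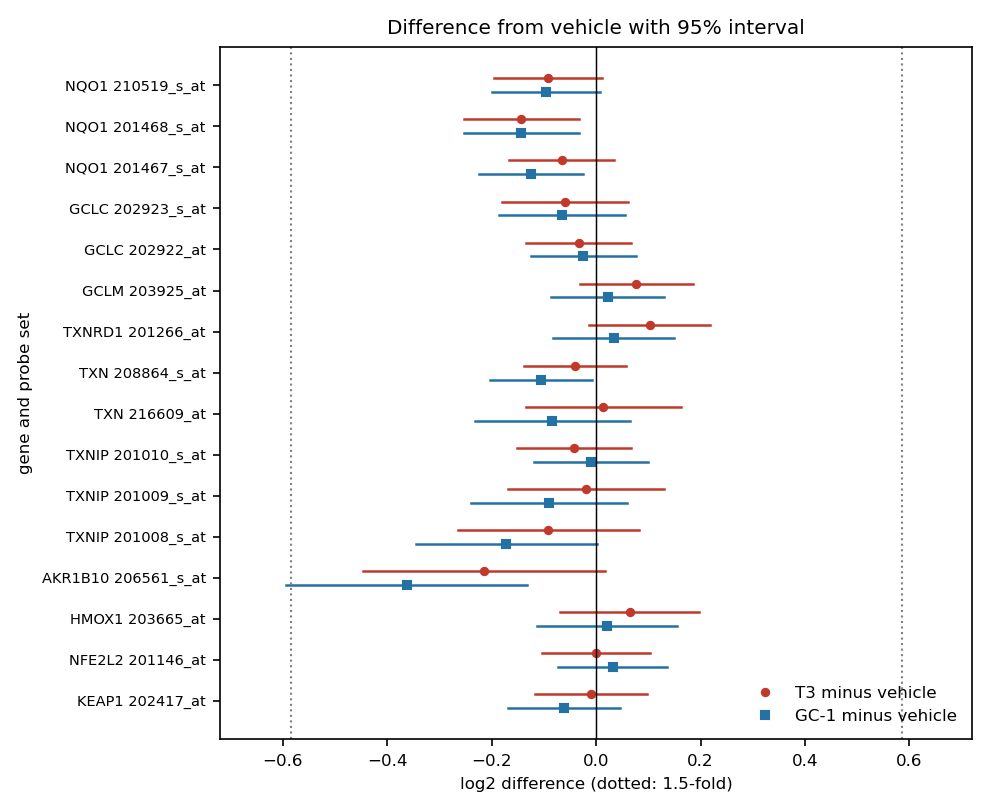
Log2 difference from vehicle (horizontal axis) with its 95% interval from limma for each probe set (vertical axis), T3 as circles and GC-1 as squares, n = 3 arrays per group. Dotted lines mark 1.5-fold; only the GC-1 interval of AKR1B10, from -0.60 to -0.13, reaches past one.

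NQO1, a quinone reductase and a standard reporter gene of NRF2, read lower in ligand-treated cells in all 3 of its probe sets, by amounts that did not pass the test. In RNA of whole cultures, fewer cells with a transcript and less of it per cell cannot be told apart. For 201468_s_at the signals were 11.713, 11.699 and 11.626 with T3, 11.641, 11.685 and 11.713 with GC-1, and 11.827, 11.777 and 11.865 with vehicle. Every array of either ligand lay below every vehicle array. The differences were -0.14 ± 0.05 (SE, n = 3 per group, limma adjusted p = 0.130) with T3 and -0.14 ± 0.05 (limma adjusted p = 0.183) with GC-1. This probe set passed with T3 under the trend and robust options (adjusted p = 0.0140) and after removal of dim probe sets (adjusted p = 0.0441), and with GC-1 under the trend and robust options (adjusted p = 0.0186).

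The brightest NQO1 probe set, 210519_s_at, had signals of 12.536, 12.488 and 12.556 with T3, 12.563, 12.501 and 12.504 with GC-1, and 12.591, 12.625 and 12.641 with vehicle. The groups again did not overlap with vehicle, and the differences were -0.09 with T3 and -0.10 with GC-1 (limma adjusted p = 0.294 and 0.355). In 201467_s_at the values were 11.275, 11.232 and 11.238 with T3, 11.169, 11.205 and 11.197 with GC-1, and 11.293, 11.303 and 11.348 with vehicle. Here too both ligands lay below vehicle, by -0.07 with T3 and -0.12 with GC-1 (limma adjusted p = 0.444 and 0.203; adjusted p = 0.0348 for GC-1 with the trend and robust options). The 3 probe sets read the same transcript on the same arrays and are not independent. All 3 T3 arrays lay below all vehicle arrays in 12.4% of all probe sets and all 3 GC-1 arrays in 15.6%. Among the 16 members this held for 4 with T3, the 3 of NQO1 and 208864_s_at of TXN, and for 6 with GC-1, those 4 with the second TXN probe set and AKR1B10.

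GCLC and GCLM encode the catalytic and the modifier subunit of glutamate-cysteine ligase, the rate-limiting enzyme of glutathione synthesis. The signals of GCLC probe set 202923_s_at were 10.259, 10.181 and 10.113 with T3, 10.111, 10.198 and 10.226 with GC-1, and 10.219, 10.255 and 10.257 with vehicle. The groups overlapped, with differences of -0.06 for T3 and -0.07 for GC-1 (limma adjusted p = 0.587 and 0.628). T3 replicate 3 was the lowest T3 array, and the T3 difference was -0.02 without it (adjusted p = 0.826) and -0.13 with it as the lone T3 array. The second GCLC probe set, 202922_at, gave -0.03 and -0.03 (adjusted p = 0.731 and 0.856), with all 9 values between 8.759 and 8.845. GCLM read 9.116, 9.135 and 9.051 with T3, 9.000, 9.099 and 9.039 with GC-1, and 9.039, 9.002 and 9.030 with vehicle. Its T3 arrays all lay above the vehicle arrays, as in 12.5% of all probe sets, and its GC-1 arrays did not lie apart in 1 direction (10.8% of all probe sets lay wholly above). The differences were 0.08 ± 0.05 with T3 (limma adjusted p = 0.412) and 0.02 ± 0.05 with GC-1 (adjusted p = 0.885). The T3 difference was 0.10 without T3 replicate 3 (adjusted p = 0.236) and 0.03 with it as the lone T3 array.

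Of the thioredoxin pair, TXN encodes thioredoxin and TXNRD1 the cytosolic reductase that recharges it. TXN probe set 208864_s_at read 12.640, 12.615 and 12.629 with T3, 12.591, 12.558 and 12.539 with GC-1, and 12.662, 12.673 and 12.670 with vehicle. The groups stood in the order vehicle, T3, GC-1 from high to low without overlap. The differences were -0.04 ± 0.04 with T3 (limma adjusted p = 0.656) and -0.11 ± 0.04 with GC-1 (adjusted p = 0.270; 0.0193 with the trend and robust options). The second TXN probe set, 216609_at, read 10.362, 10.409 and 10.629 with T3, 10.366, 10.391 and 10.350 with GC-1, and 10.490, 10.461 and 10.407 with vehicle. T3 replicate 3 was the highest of the 9 arrays. The T3 difference was 0.01 over all arrays and -0.07 without T3 replicate 3 (adjusted p = 0.933 and 0.430). With T3 replicate 3 as the lone T3 array it was 0.18. The GC-1 difference was -0.08 (adjusted p = 0.611).

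TXNRD1 read 10.374, 10.332 and 10.219 with T3, 10.234, 10.277 and 10.207 with GC-1, and 10.191, 10.207 and 10.220 with vehicle. T3 replicates 1 and 2 lay above the vehicle arrays and T3 replicate 3 within them. The T3 difference was 0.10 ± 0.05 (limma adjusted p = 0.301) and 0.15 without T3 replicate 3 (adjusted p = 0.0949). With T3 replicate 3 as the lone T3 array it was 0.01. GC-1 differed from vehicle by 0.03 ± 0.05 (adjusted p = 0.829).

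TXNIP, the inhibitor of thioredoxin, showed no change that passed in any of its 3 probe sets. The brightest, 201010_s_at, read 11.164, 11.200 and 11.242 with T3, 11.302, 11.210 and 11.190 with GC-1, and 11.233, 11.252 and 11.248 with vehicle, and the groups overlapped. Its differences were -0.04 with T3 (95% interval -0.15 to 0.07, limma adjusted p = 0.681) and -0.01 with GC-1 (-0.12 to 0.10, adjusted p = 0.953). In 201008_s_at the signals were 9.756, 9.805 and 9.878 with T3, 9.909, 9.693 and 9.596 with GC-1, and 9.812, 9.940 and 9.963 with vehicle. GC-1 replicates 2 and 3 lay below all other arrays and GC-1 replicate 1 within the vehicle range, so the difference of -0.17 had an interval of -0.35 to 0.00 (adjusted p = 0.318). The T3 difference there was -0.09 (adjusted p = 0.555), -0.12 without T3 replicate 3 and -0.03 with it as the lone T3 array. The third probe set, 201009_s_at, gave -0.02 with T3 and -0.09 with GC-1 (adjusted p = 0.903 and 0.577), and the T3 value was -0.04 without T3 replicate 3 and 0.03 with it as the lone T3 array. For 201010_s_at these were -0.06 and 0.00. MLXIPL, a factor known to act on the TXNIP promoter, passed the test on the same arrays.

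MLXIPL read 8.681, 8.612 and 8.403 with T3, 8.362, 8.378 and 8.528 with GC-1, and 7.994, 8.095 and 8.070 with vehicle. The ligand arrays all lay above the vehicle arrays, by 0.51 ± 0.08 with T3 (limma adjusted p = 0.00248) and 0.37 ± 0.08 with GC-1 (adjusted p = 0.0262). The T3 change was 0.35 with T3 replicate 3 as the lone T3 array. The GC-1 call was lost without any single GC-1 or vehicle array (adjusted p = 0.0621 to 0.115). MLX and MLXIP, the other measured genes of 7 alpha-arrestins and Mlx factors listed, gave 0.10 and 0.03 with T3 (adjusted p = 0.232 and 0.817) and 0.08 and 0.02 with GC-1 (adjusted p = 0.422 and 0.919).

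AKR1B10, an aldo-keto reductase that reduces retinal and other aldehydes and is known to be raised in liver tumours, had the widest spread. Its probe set, 206561_s_at, is of a kind that can bind several transcripts, and its neighbour AKR1B15 is a close copy. The signals were 8.873, 8.799 and 8.430 with T3, 8.481, 8.609 and 8.565 with GC-1, and 8.774, 8.951 and 9.020 with vehicle. All GC-1 arrays lay below all vehicle arrays, T3 replicate 3 lay below every GC-1 array, and T3 replicates 1 and 2 lay within the vehicle range. The GC-1 difference was -0.36 ± 0.11 (1.29-fold lower, 95% interval -0.60 to -0.13), the largest of the 16, and missed the threshold (limma adjusted p = 0.107). It passed in 6 of 18 alternatives. Of these, the fit of the 2 groups alone and that with T3 replicate 3 as the lone T3 array are the same for this comparison. Another was the fit without T3 replicate 3 (adjusted p = 0.0150), an array that enters the shared estimate of spread. The lowest and highest adjusted p over the 18 were 0.0150 and 0.297. The T3 difference was -0.21 ± 0.11 (adjusted p = 0.275). It was -0.08 without T3 replicate 3 (adjusted p = 0.564) and -0.49 with T3 replicate 3 as the lone T3 array, so its size rests on that array.

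**Figure D3:**
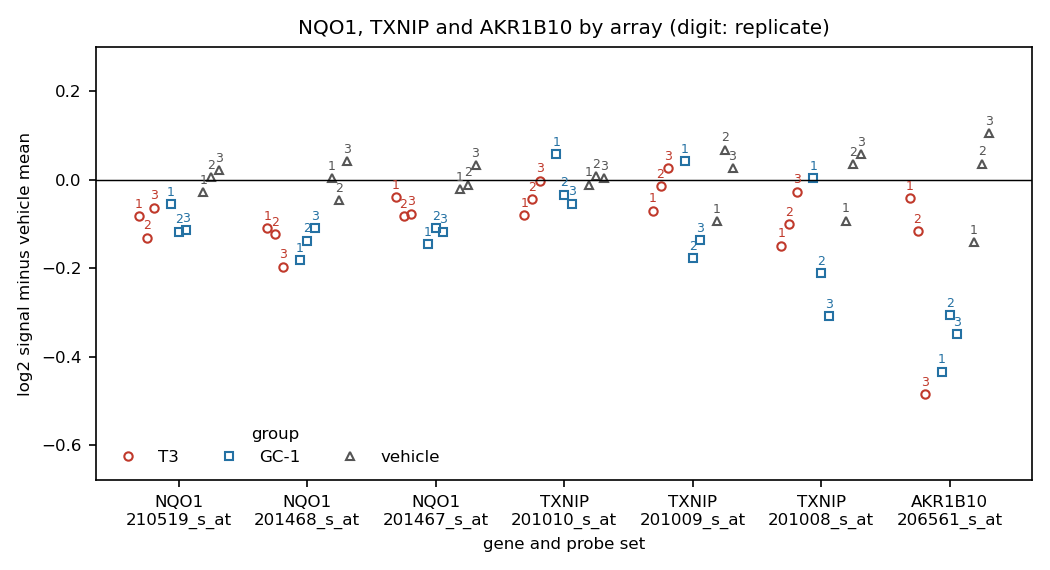
Log2 signal minus the vehicle mean (vertical axis) for the probe sets of NQO1, TXNIP and AKR1B10 (horizontal axis) on each T3 (circles), GC-1 (squares) and vehicle (triangles) array; digits give the replicate number. The ligand arrays of NQO1 lie below vehicle throughout, those of TXNIP overlap with it, and T3 replicate 3 of AKR1B10 lies far below T3 replicates 1 and 2.

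HMOX1, the inducible heme oxygenase, read 9.643, 9.533 and 9.567 with T3, 9.576, 9.572 and 9.466 with GC-1, and 9.501, 9.614 and 9.436 with vehicle. The groups overlapped, with differences of 0.06 ± 0.06 for T3 (interval -0.07 to 0.20, limma adjusted p = 0.600) and 0.02 ± 0.06 for GC-1 (interval -0.11 to 0.15, adjusted p = 0.915).

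NFE2L2 and KEAP1, the factor and its inhibitor, did not pass the test with either ligand. NFE2L2 read 11.124, 11.118 and 11.121 with T3, 11.190, 11.126 and 11.143 with GC-1, and 11.077, 11.117 and 11.170 with vehicle. The T3 difference was 0.00 (95% interval -0.10 to 0.10, limma adjusted p = 0.998) and the GC-1 difference 0.03 (interval -0.07 to 0.14, adjusted p = 0.818). KEAP1 read 8.726, 8.752 and 8.767 with T3, 8.743, 8.658 and 8.686 with GC-1, and 8.716, 8.806 and 8.750 with vehicle. Its differences were -0.01 (interval -0.12 to 0.10) and -0.06 (interval -0.17 to 0.05), with adjusted p = 0.941 and 0.601. In both genes the groups overlapped with vehicle.

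GC-1 was set against T3 directly at the same dose and time. None of the 16 probe sets passed (limma, adjusted p = 0.519 or more), and 0% of all probe sets did. An unadjusted p under 0.05 was found for 0 of the 16 and for 14.1% of all probe sets, and with the trend and robust options 0 of the 16 and 0.0990% of all probe sets passed. The GC-1 minus T3 differences ran from -0.15 in AKR1B10 to 0.03 in NFE2L2 and in TXNIP, with a median of -0.05 (all probe sets -0.01). Every 95% interval lay within 1.5-fold, as did 99.8% of those of all probe sets. For NQO1 201468_s_at the difference was 0.00 (interval -0.11 to 0.11), for GCLM -0.05 (-0.16 to 0.05), for TXNRD1 -0.07 (-0.19 to 0.05) and for HMOX1 -0.04 (-0.18 to 0.09). The widest interval was that of AKR1B10, from -0.38 to 0.08. Its difference was -0.28 without T3 replicate 3 (adjusted p = 0.0766) and 0.12 with it as the lone T3 array. TXNRD1 gave -0.11 without T3 replicate 3 (adjusted p = 0.180) and 0.02 with it as the lone T3 array. For TXN 216609_at the values were -0.02 (adjusted p = 0.859) and -0.26. In all, 2 of the 16 GC-1 minus T3 differences changed sign without T3 replicate 3 and 4 with it as the lone T3 array. Without T3 replicate 3, 0 of the 16 passed, where 338 of all 22215 probe sets did. All 3 GC-1 arrays lay above all T3 arrays in NFE2L2 (7.90% of all probe sets) and below them in NQO1 201467_s_at and TXN 208864_s_at (10.1% of all probe sets).

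**Figure D4:**
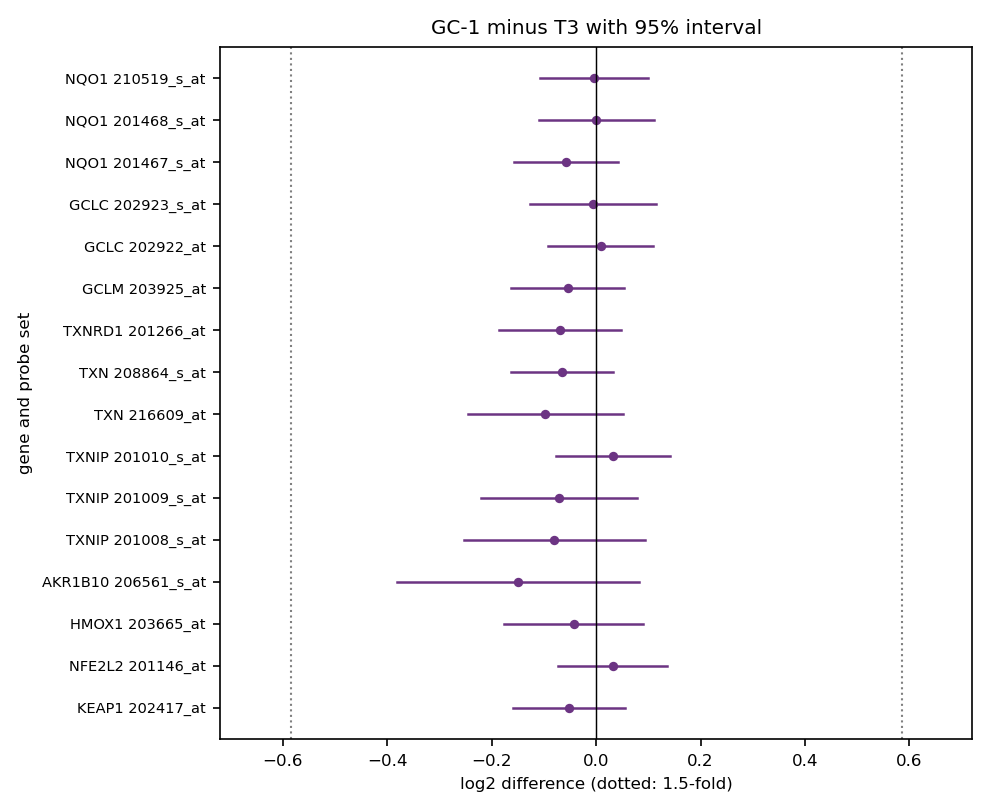
GC-1 minus T3 difference on the log2 scale (horizontal axis) with its 95% interval from limma for each probe set (vertical axis), n = 3 arrays per group. All 16 intervals lie between the dotted lines at 1.5-fold.

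Genes around the members did change. Of 114 genes on 7 lists of related functions 88 were measured, each by its brightest probe set. With T3, 12 rose and 4 fell, which is 13.6% and 4.55%, against 4.51% and 1.71% of all 11963 named genes. With GC-1, 6 rose and 1 fell, which is 6.82% and 1.14%, against 2.10% and 1.16%. The lists were drawn up with earlier results of these data known, and some genes belong to several. Most of the 88 genes read above the middle of all probe sets, and the named genes were not matched to them for signal. In the fit without dim probe sets, only those with a mean signal above the median of all 22215 were kept. Of this smaller number 1780 passed with T3 and 1236 with GC-1, against 1222 and 622 of all 22215. Bright probe sets thus passed in a clearly larger share than all probe sets, and the lists were not set beside that share. Whether signal level explains the higher shares was not tested. Median differences over the 88 genes were 0.06 with T3 and 0.01 with GC-1, beside -0.017 and -0.005 over all genes.

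Of 29 other NRF2 target genes 4 rose and 1 fell with T3, and 2 rose and 0 fell with GC-1; their median differences were 0.06 and 0.02. EPHX1, the microsomal epoxide hydrolase, read 9.209, 9.146 and 9.279 with T3, 9.241, 9.229 and 9.228 with GC-1, and 8.917, 8.914 and 8.912 with vehicle. It lay above vehicle on every ligand array, by 0.30 ± 0.05 with T3 (limma adjusted p = 0.00464) and 0.32 ± 0.05 with GC-1 (adjusted p = 0.00518), and passed in all 18 alternatives of each. AKR1C3, a steroid-reducing relative of AKR1B10 with near-identical family members, rose by 0.26 and 0.24 (adjusted p = 0.0121 and 0.0274). Its T3 call was lost without vehicle replicate 1 or 2 (adjusted p = 0.0503 and 0.0570) and its GC-1 call without any single GC-1 or vehicle array (adjusted p = 0.0743 to 0.121). With the replicate block the GC-1 calls of AKR1C3, MAFF and MLXIPL were also lost (adjusted p = 0.0727, 0.0853 and 0.0749).

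SLC7A11, the cystine importer that feeds glutathione synthesis, went the other way. It read 8.315, 8.420 and 7.869 with T3, 8.246, 8.338 and 8.465 with GC-1, and 8.609, 8.697 and 8.772 with vehicle. All ligand arrays lay below vehicle, by -0.49 ± 0.12 with T3 (limma adjusted p = 0.0387) and -0.34 ± 0.12 with GC-1 (adjusted p = 0.185). Its T3 difference was -0.33 without T3 replicate 3 (adjusted p = 0.0350) and -0.82 with it as the lone T3 array. The call was lost with the replicate block (adjusted p = 0.0722), in a fit of the T3 and vehicle arrays alone (adjusted p = 0.0745), and without T3 replicate 1, GC-1 replicate 2 or any vehicle array (adjusted p = 0.0562 to 0.133). Of its dimmer probe sets, 217678_at gave -0.24 with T3 (adjusted p = 0.243) and 207528_s_at passed with -0.28 (adjusted p = 0.0407). The GC-1 difference of the brightest passed without T3 replicate 3 (adjusted p = 0.0191), with array weights and in a fit of the GC-1 and vehicle arrays alone.

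The remaining changes in that list were BLVRB, a biliverdin reductase, and GSR, glutathione reductase, which rose with T3 by 0.29 and 0.21 (limma adjusted p = 0.0150 and 0.0427). With GC-1 they differed from vehicle by 0.11 and 0.13 (adjusted p = 0.413 and 0.247). The BLVRB call was lost without vehicle replicate 2 (adjusted p = 0.0666). The GSR call was lost in 13 of 18 alternatives, among them the replicate block and every fit that left out 1 array other than T3 replicate 3 (adjusted p of up to 0.146). The classical target PRDX1, a peroxiredoxin, differed by 0.02 and 0.01 (adjusted p = 0.865 and 0.950) and the ferritin gene FTL by 0.00 and 0.01 (adjusted p = 0.995 and 0.966). FTL read near the top of the signal range, at a mean of 14.36, by a probe set that can bind other genes. Among others that did not pass, GPX2 lay below vehicle on every ligand array (-0.19 and -0.12, adjusted p = 0.0599 and 0.272). AKR1C2 lay above on every ligand array (0.16 and 0.15, adjusted p = 0.0799 and 0.126). These are examples. With T3, 12.4% of all probe sets lay wholly below vehicle and 12.5% wholly above. With GC-1 these shares were 15.6% and 10.8%.

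Of 17 NRF2 partners and regulators 3 rose and 2 fell with T3, and 2 rose and 1 fell with GC-1, around medians of 0.01 and 0.01. FYN, a tyrosine kinase reported to act on NRF2 export from the nucleus, rose by 0.60 ± 0.05 with T3 and 0.54 ± 0.05 with GC-1 (limma adjusted p = 4.48e-05 and 0.000155). It read 8.838, 8.897 and 8.859 with T3, 8.812, 8.837 and 8.775 with GC-1, and 8.285, 8.193 and 8.324 with vehicle, wholly apart, and passed in all 18 alternatives of each. Of its other probe sets, 216033_s_at passed in both comparisons and the dimmest, 212486_s_at, gave 0.21 and 0.28 (adjusted p = 0.132 and 0.0798). MAFF, a small MAF partner of NRF2, rose by 0.35 and 0.24 (adjusted p = 0.00239 and 0.0288), and in a second probe set, 205193_at, by 0.27 and 0.22 (adjusted p = 0.00750 and 0.0382). The GC-1 call of the first was lost without any single GC-1 array or without vehicle replicate 2 or 3 (adjusted p = 0.0717 to 0.139).

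The relatives of NRF2 split. NFE2, its blood-cell relative, read 5.818, 6.059 and 5.866 with T3, 5.854, 5.811 and 5.732 with GC-1, and 6.362, 6.235 and 6.496 with vehicle. It fell by 0.45 with T3 and by 0.57 with GC-1 (limma adjusted p = 0.00693 and 0.00283), in dim signals where the array compresses changes. NFE2L3 fell with T3 (-0.44, adjusted p = 0.00275) and differed by -0.22 with GC-1 (adjusted p = 0.119). NFE2L1, a relative known for the proteasome genes it controls, rose with T3 by 0.30 (adjusted p = 0.0190; lost without vehicle replicate 2 or 3, adjusted p = 0.0757 and 0.0785) and passed with T3 in all 3 of its probe sets. Its GC-1 difference was 0.21 (adjusted p = 0.121). BACH1, the repressor that competes with NRF2 for its elements, and the ubiquitin ligase subunit CUL3 did not pass (adjusted p = 0.274 and 0.842 with T3, 0.965 and 0.574 with GC-1).

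Of 21 other thioredoxin, peroxiredoxin and glutaredoxin genes 1 rose and 1 fell with T3, and 1 rose with GC-1, with medians of -0.03 and -0.02. GLRX5, a mitochondrial glutaredoxin needed for iron-sulfur clusters, read 12.082, 12.062 and 12.201 with T3, 12.029, 12.028 and 12.009 with GC-1, and 11.652, 11.682 and 11.637 with vehicle. It rose by 0.46 ± 0.05 and 0.37 ± 0.05 (limma adjusted p = 0.000340 and 0.00271), in all 18 alternatives of each. TXNDC9, a thioredoxin-like protein with a probe set that can bind other genes, fell with T3 (-0.28, adjusted p = 0.0480). That call was lost in 10 of 18 alternatives, among them every fit that left out 1 array other than T3 replicate 2 (adjusted p = 0.0582 to 0.165). The value was -0.20 without T3 replicate 3 (adjusted p = 0.0730) and -0.44 with it as the lone T3 array. A second TXNDC9 probe set gave -0.25 (adjusted p = 0.0608).

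Glutathione supply and peroxide removal had 3 of 17 genes higher and 1 lower with T3, and 0 with GC-1, with medians of 0.09 and 0.05. GPX3, the secreted glutathione peroxidase, read 11.344, 11.372 and 11.268 with T3, 11.172, 11.012 and 10.968 with GC-1, and 10.487, 10.857 and 10.845 with vehicle. All ligand arrays lay above vehicle, by 0.60 ± 0.09 with T3 (limma adjusted p = 0.00367) and 0.32 ± 0.09 with GC-1 (adjusted p = 0.113). Vehicle replicate 1 was the lowest array. The T3 difference was 0.63 without T3 replicate 3 and 0.54 with it as the lone T3 array. A second GPX3 probe set, 214091_s_at, gave 0.64 and 0.33 (adjusted p = 0.00315 and 0.118). GPX4, which removes lipid peroxides, rose with T3 by 0.22 (adjusted p = 0.0354), a call lost in 9 of 18 alternatives, among them those without T3 replicate 1 or 3, GC-1 replicate 2 or 3, or any vehicle array (adjusted p = 0.0542 to 0.117). GSR and SLC7A11 belong to this list as well.

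Of 6 measured genes of heme breakdown and ferritin, BLVRB and POR, the reductase that supplies heme oxygenase with electrons, rose with T3, and 0 changed with GC-1, with medians of 0.15 and 0.04. POR rose by 0.29 (limma adjusted p = 0.0220; lost without T3 replicate 3 or vehicle replicate 2 or 3, adjusted p = 0.0508 to 0.0996) and differed by 0.15 with GC-1 (adjusted p = 0.271). Of 7 other aldo-keto reductases AKR1C3 alone passed, with either ligand, and the medians were 0.08 with T3 and 0.13 with GC-1. None of the genes of any list passed for GC-1 minus T3, so a call with T3 and not with GC-1 is not a shown difference between the ligands. 

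**Figure D5:**
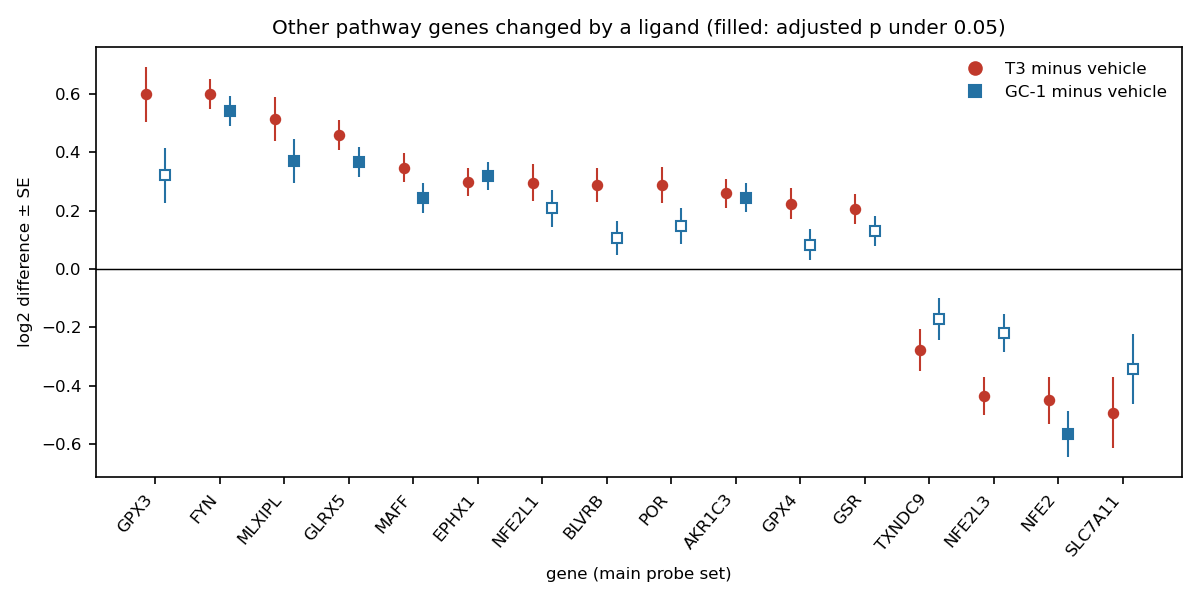
Log2 difference from vehicle (vertical axis, ± SE from limma, n = 3 arrays per group) of the 16 genes of the 7 lists (horizontal axis) that passed with T3, GC-1 or both; T3 as circles, GC-1 as squares, filled where the adjusted p was under 0.05. T3 changes run from -0.49 in SLC7A11 to 0.60 in GPX3, and each gene has the same sign with both ligands. The genes were picked for passing and both differences use the same vehicle arrays, so the shared sign is not independent evidence.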

How the data were processed

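Each array came as deposited log2 signals for its probe sets. RMA is the method that the submitters' processing notes name, without a version. RMA as usually run corrects background, normalizes arrays and summarizes probes. The log base was inferred from the range of the values (3.15 to 14.5). The values were used as deposited, without scanner files, so detection was not examined; RMA compresses dim signals. Groups came from sample titles. After removal of 62 array controls, 22215 probe sets were fitted in R 4.3.3 by limma 3.58.1 (two-sided lmFit with eBayes, 1 model of the 3 groups over all 9 arrays), with Benjamini-Hochberg adjustment over all probe sets, a threshold of 0.05 and 95% intervals. The script was tested on simulated data. Symbols came from GEO's platform annotation: 19064 probe sets had 1 symbol, 1043 several and 2108 none, and 0 needed updating. A list gene was read by its probe set of highest mean. The members, lists and motifs were chosen with earlier results of these data known. Member genes were all described; of each list, genes that passed were named and some that did not. Genes most alike in pattern were to be named for members that passed, of which there were none. Alternatives were 18 other fits (normalization, variance prior, array weights, filters, replicate block, single arrays left out). The number of arrays limits the precision.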

Additional observations from a re-analysis of the deposited data

How the results depend on the processing

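Of the 16 probe sets, 0 passed with either ligand in the chosen fit. The count became 1 with T3 and 4 with GC-1 under trend and robust eBayes, and 1 and 1 without dim probe sets. Among all 22215 probe sets, 1957 and 1347 passed under trend and robust eBayes. Without dim probe sets 1780 and 1236 passed, out of a smaller number fitted, those with a mean signal above the median. Their shares are therefore larger than the same counts out of 22215 would be. The member count became 1 with GC-1 under array weights or in a fit of the 2 groups alone. With T3 it became 1 when the array's interquartile range was a covariate. Leaving out 1 array at a time gave 0 to 1 with GC-1 (1 without T3 replicate 3). Every such call was a decrease, in NQO1, AKR1B10 or TXN, and GC-1 minus T3 stayed at 0.

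Over all probe sets the T3 count of 1222 became 1957 with trend and robust eBayes, 753 in a fit of the 2 groups alone, 773 with the replicate block and 2084 with the interquartile range as covariate (932 higher, 1152 lower, against 888 and 334), and ran from 661 to 1356 with 1 array left out. The GC-1 count of 622 became 1347 with trend and robust eBayes and 1435 with array weights. It became 1236 without dim probe sets, where fewer probe sets were fitted. It became 1061 in a fit of the 2 groups alone and 347 with the replicate block, and ran from 274 to 1272 with 1 array left out. GC-1 minus T3 had 0, but 22 with trend and robust eBayes, 3 without dim probe sets and 0 to 338 with 1 array left out (338 without T3 replicate 3). The cause was not tested.

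Same-numbered arrays did not deviate together (correlations -0.26 to 0.08). With 3 arrays per group this cannot show whether the numbers pair the samples, and the labels do not say. With the replicate block, 0 of the 16 probe sets passed in any comparison. The alternatives for the lists were chosen after seeing the data: among the 29 NRF2 targets the T3 count ran from 1 to 7 higher and 0 to 3 lower, and the GC-1 count from 1 to 4 higher and 0 to 1 lower.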
